A study of Sus scrofa with 41 samples.

Results

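The genes described here belong to excitation-contraction coupling, the step by which an action potential in a skeletal muscle fibre releases calcium from the sarcoplasmic reticulum. A voltage sensor in the transverse tubule membrane, a calcium channel of the L type, contacts the ryanodine receptor in the facing reticulum membrane, and the receptor lets stored calcium into the cytosol. Junctophilins and triadin hold this junction, the triad, together, calsequestrin binds calcium inside the store, and calcium pumps, which sarcolipin inhibits, take it back up.

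The list held 8 genes, RYR1, CASQ1, CACNA1S, CACNG1, TRDN, JPH1, STAC3 and SLN, chosen by gene symbol for their role in this step, when earlier results of these data were already known. Symbols were matched to the pig Ensembl identifiers of the 25880 genes counted, 14857 of which had a symbol, and 6 of the 8 genes were found. RYR1, the release channel itself, and STAC3, an adaptor of the voltage sensor, had no identifier matched by symbol and were not analysed here. All 6 genes found passed the filter on low counts, together with 11146 genes in all.

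Messenger RNA was sequenced from psoas major, a loin muscle, of 41 uncastrated male pigs, 1 library per pig, and the aim was to relate muscle expression to feed efficiency. There were 13 pigs of the Danbred Duroc and 28 of the Danbred Landrace breed, raised at a single commercial station and slaughtered at a common target weight in 5 batches, with no experimental treatment. Each pig carried a feed conversion ratio (FCR), an RNA integrity number (RIN, a scale on which intact RNA scores high) and its age in days. FCR is read here as feed eaten per weight gained, so that a low value is efficient, because the label values lie between 1.83 and 2.25. The methods text describes the inverse ratio, and under that reading the direction of efficiency would turn. The covariates differed between the breeds: the median FCR was 1.94 in Duroc and 2.10 in Landrace, the median age 148 and 154.5 days, and the median RIN 8.2 and 8.0.

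The libraries held between 22188911 and 25954816 counts on genes, with a median of 25243577. RIN ran from 6.5 to 8.8, and 3 pigs were at 7 or below: Landrace replicate 1 at 6.5, Landrace replicate 27 at 6.6 and Duroc replicate 10 at 7.0. These 3 stood apart in several of the genes below, so results that rest on them are given with and without them. Because the tissue was sequenced in bulk, fewer cells of a type and less RNA per cell cannot be told apart.

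The genes were abundant, with between 3126 and 181947 counts in a library, so counting error was small beside the spread between pigs. CASQ1 varied least, with an SD of 0.23 on the log2 scale over the 41 pigs, lower than that of most genes tested. TRDN varied most, with an SD of 0.56, and 82.5% of the genes tested had a smaller one. The remaining genes, CACNA1S, JPH1, CACNG1 and SLN, had SDs from 0.31 to 0.42, on either side of the median of all genes at 0.34.

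The first comparison was between the breeds, with FCR, RIN, age and batch in the same model. After that adjustment all 6 genes had a positive estimate, higher in Landrace, and 3 of them passed the test: JPH1, CACNG1 and SLN. JPH1 had by far the smallest p of the list. The share of all genes called for breed was 33.1%, against which 3 of 6 is read.

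**Figure D1:**
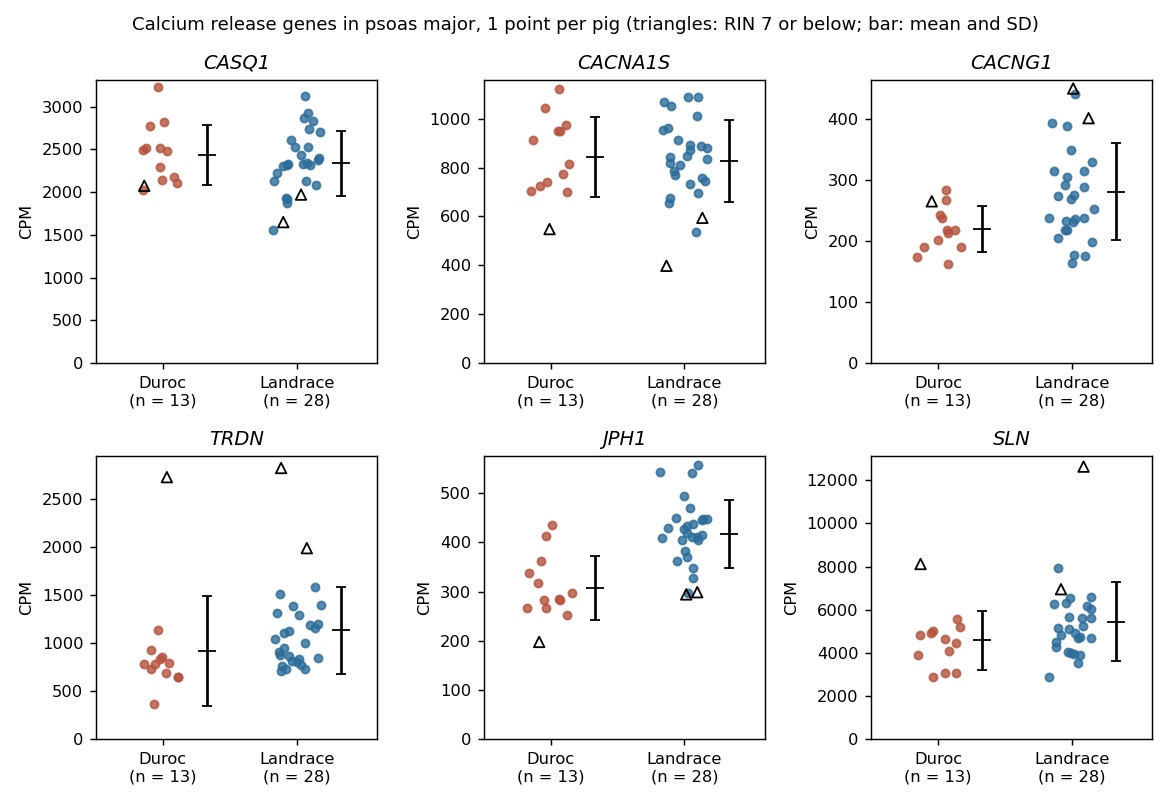
Expression of the 6 calcium release genes in CPM, the normalised read count scaled to library size (linear axis from 0), 1 point per pig, with Duroc in red and Landrace in blue, triangles for the 3 pigs with RIN of 7 or below and bars for the mean and SD of each breed. The breeds overlap for every gene, JPH1 shows the clearest shift with all 28 Landrace pigs above the Duroc median, and the triangles lie at the top for TRDN and at the bottom for CACNA1S.

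JPH1 encodes junctophilin 1, which anchors the reticulum to the transverse tubule (chromosome 4, 61628304 to 61716550, in RefSeq on Sscrofa11.1). Its level, in normalised counts per 1e6 counts of the library (CPM), ran from 198.0 through a median of 285.7 to 434.7 CPM in Duroc, and from 294.5 through 417.0 to 557.5 CPM in Landrace. The ranges overlapped, but 10 Landrace pigs lay above the highest Duroc pig, 7 Duroc pigs lay below the lowest Landrace pig, and all 28 Landrace pigs lay above the Duroc median. The adjusted difference was 0.81 on the log2 scale (SE 0.096), a fold of 1.75 with a 95% interval from 1.53 to 2.00 (edgeR quasi-likelihood test, adjusted p = 3.38e-07). JPH1 ranked 15 by p among the genes tested for breed. The unadjusted ratio of its means, Landrace over Duroc, was 1.36. With age left out of the model the JPH1 difference was 0.67 (edgeR, adjusted p = 1.58e-06).

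In batch 2, the largest, the 3 Duroc pigs averaged 282.2 ± 14.9 CPM (SD) for JPH1 and the 12 Landrace pigs 410.9 ± 61.2 CPM (SD). In batch 5 4 Duroc pigs averaged 250.3 ± 37.1 CPM (SD) and 7 Landrace pigs 420.0 ± 84.6 CPM (SD). Fitted alone, both batches gave a JPH1 difference past the threshold with edgeR, 0.73 in batch 2 (adjusted p = 0.0094) and 0.99 in batch 5 (adjusted p = 0.044). Batch 3 was not fitted alone, and there the 2 Duroc pigs averaged 312.3 ± 37.6 CPM (SD) and the 7 Landrace pigs 394.2 ± 46.7 CPM (SD).

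CACNG1 encodes the gamma 1 subunit of the skeletal muscle voltage sensor channel (chromosome 12, 13462589 to 13481651). It ran from 162.6 through a median of 217.3 to 283.3 CPM in Duroc, and from 163.8 through 270.7 to 449.7 CPM in Landrace. The lowest pigs of the breeds were alike, whereas 12 Landrace pigs exceeded every Duroc pig. The adjusted difference was 0.50 (SE 0.15), a fold of 1.41 with a 95% interval from 1.14 to 1.75 (edgeR, adjusted p = 0.015). Scaled by library totals alone it was 0.31 (edgeR, adjusted p = 0.072). Within batches CACNG1 kept its direction without passing the edgeR test, at 0.41 in batch 2 (adjusted p = 0.32) and 0.50 in batch 5 (adjusted p = 0.17).

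CACNA1S encodes the pore-forming subunit of the same channel (chromosome 10, 23503701 to 23567797). Its levels were 548.2, 814.6 and 1123 CPM in Duroc (lowest, median and highest) and 397.9, 840.9 and 1090 CPM in Landrace, and the breeds overlapped almost entirely. The adjusted difference was 0.21 (SE 0.14), with a 95% interval from -0.07 to 0.49 on the log2 scale, and did not pass the edgeR test (adjusted p = 0.27). The subunits of the channel were not tested against each other.

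SLN encodes sarcolipin, a small membrane peptide that inhibits the calcium pump (chromosome 9, 36232955 to 36242405). Its levels were 2877, 4655 and 8121 CPM in Duroc and 2878, 5126 and 12630 CPM in Landrace, again as lowest, median and highest. Only 1 Landrace pig exceeded the highest Duroc pig, and both of these pigs had a RIN of 7 or below. The adjusted difference was 0.45 (SE 0.16), a fold of 1.37 with a 95% interval from 1.09 to 1.71 (edgeR, adjusted p = 0.034). The SLN call was lost when libraries were scaled by their total alone, at 0.28 (edgeR, adjusted p = 0.14), and in batch 5 alone, at 0.53 (adjusted p = 0.36). It held in batch 2 alone, at 0.74 (edgeR, adjusted p = 0.0071), and without the 3 pigs of low RIN, at 0.53 (adjusted p = 0.015).

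TRDN encodes triadin, which links calsequestrin to the release channel (chromosome 1, 39180544 to 39567245). It ran from 364.0 through 784.9 to 2722 CPM in Duroc and from 710.1 through 1019 to 2817 CPM in Landrace. In Duroc, 4 pigs lay below every Landrace pig, and the highest Duroc pig, replicate 10, was 1 of the 3 of low RIN. The adjusted difference was 0.35 (SE 0.18) and did not pass (edgeR, adjusted p = 0.16). The TRDN estimate varied with the pigs and the fit. It was 0.03 in batch 5 alone (edgeR, adjusted p = 0.97) and 0.17 with library totals alone (adjusted p = 0.38). It passed the threshold without Duroc replicate 10, at 0.49 (adjusted p = 0.036, edgeR), without Landrace replicate 23, at 0.40 (adjusted p = 0.092), and without the 3 pigs of low RIN, at 0.52 (adjusted p = 0.024). With RIN left out of the model TRDN was called at 0.65 (edgeR, adjusted p = 0.062).

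CASQ1 encodes calsequestrin 1, the calcium-binding protein of the store in fast fibres (chromosome 4, 90276752 to 90288990). Its levels were 2022, 2486 and 3231 CPM in Duroc and 1558, 2324 and 3119 CPM in Landrace. The unadjusted mean was slightly lower in Landrace, with a ratio of 0.96, while the adjusted difference was positive at 0.21 (SE 0.10), with a 95% interval from -0.00 to 0.42, and did not pass (edgeR, adjusted p = 0.14). Leaving out Duroc replicate 6 brought it past the threshold, at 0.28 (edgeR, adjusted p = 0.089).

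**Figure D2:**
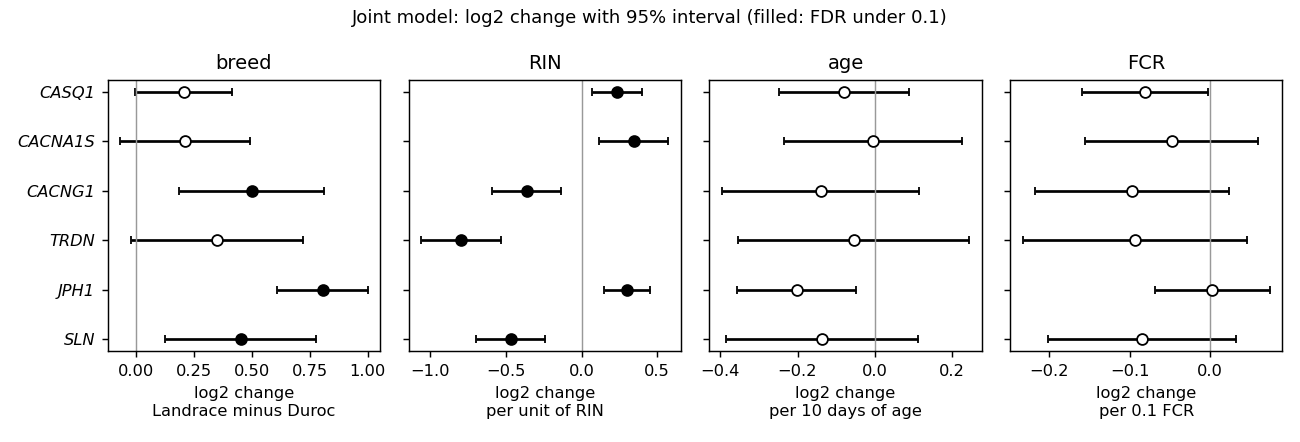
Log2 change of each gene with its 95% interval for breed, RIN, age and FCR from 1 joint edgeR model over the 41 pigs, with filled points where the adjusted p is under 0.1. For breed all 6 points lie above 0 and 3 are filled, for RIN 3 lie on each side and all are filled, and for age and FCR none is filled.

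Genes of the contractile apparatus differed between the breeds alongside these genes. All 5 fast-fibre contractile genes tested were called higher in Landrace, from 0.44 to 0.60 on the log2 scale. Their summed level ran from 28750 through a median of 38010 to 51380 CPM in Duroc and from 21460 through 43520 to 71100 CPM in Landrace. The highest pig of each breed in this sum was among the 3 of low RIN. All 5 slow-fibre contractile genes had negative estimates, from -0.79 to -0.53, and 1 was called, TNNI1, the slow skeletal troponin I, at -0.79 (edgeR, adjusted p = 0.051). Their summed level ran from 4255 to 14050 CPM in Duroc and from 1345 to 16410 CPM in Landrace.

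With a score of the fast-fibre genes as a further term, 1 of the 6 calcium release genes stayed called for breed, and the share of all genes called fell to 11.7%. That gene was JPH1, whose difference fell to 0.52 on the log2 scale (edgeR, adjusted p = 0.0018). SLN was then at 0.10 (adjusted p = 0.80, edgeR), TRDN at 0.15 (adjusted p = 0.76), and CACNG1, CASQ1 and CACNA1S took the opposite sign, at -0.10, -0.10 and -0.15, none of them called. With the slow-fibre and fast-fibre scores together the count was again 1, with 12.7% of all genes called, JPH1 at 0.52 (edgeR, adjusted p = 0.0011). With the slow-fibre score alone, where 29.2% of all genes were called, JPH1 at 0.69 and CACNG1 at 0.44 (edgeR, adjusted p = 0.050) stayed called and SLN at 0.36 did not (adjusted p = 0.11). Both fits with the fast-fibre score were chosen after the results had been seen, and the score comes from the same libraries.

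Markers of other cells moved with breed as well. All 4 endothelial markers tested were called lower in Landrace, from -1.48 to -0.69, with summed levels from 53.9 to 160.2 CPM in Duroc and from 30.2 to 133.3 CPM in Landrace. Of the 3 smooth muscle markers tested 2 were called lower, of the 6 fibroblast markers 2 were called lower, of the 2 adipocyte markers 1 was called lower and of the 6 leukocyte markers none was called. Of the 2 cardiac markers tested 1 was called lower, MYH6. It had between 16289 and 217604 counts in a library, whereas the cardiac marker MYBPC3 had at most 9. MYH6 is not read here as a marker of heart cells. None of the nerve and Schwann cell markers passed the filter. The part of other cell types in the breed differences was not tested.

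The next comparison was with RNA integrity, and here every one of the 6 genes was called, 3 rising and 3 falling with RIN. CACNA1S, JPH1 and CASQ1 were higher in pigs of high RIN, and TRDN, SLN and CACNG1 were lower. The share of all genes called for RIN was 51.8%, so that a call was more common than not.

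TRDN had the steepest slope, -0.80 on the log2 scale per unit of RIN (SE 0.13, edgeR, adjusted p = 7.08e-06), a fold of 0.58 with a 95% interval from 0.48 to 0.69. Its 3 highest pigs in the whole study were the 3 of lowest RIN, with 2817, 2722 and 1985 CPM, whereas the other 38 pigs ran from 364.0 through 860.6 to 1577 CPM. SLN fell by 0.47 per unit (SE 0.11, edgeR, adjusted p = 0.00092), and the 3 pigs were at 12630, 8121 and 6954 CPM against 2877 to 7932 CPM in the others. CACNG1 fell by 0.36 (SE 0.11, edgeR, adjusted p = 0.0083), with the 3 pigs at 449.7, 401.1 and 264.9 CPM and the others from 162.6 to 440.3 CPM. The 3 pigs had the lowest library scaling factors (TMM) of all, 0.65, 0.70 and 0.76, which raises their CPM. In raw counts they held 126837 to 181947 for SLN against 81658 to 178749 in the others. For CACNG1 the raw counts were 4182 to 8201 against 4560 to 9915. TRDN stood apart in raw counts too, at 36197 to 42980 against 11623 to 35529.

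The voltage sensor subunit and the junctophilin went the other way. CACNA1S rose by 0.34 per unit of RIN (SE 0.11, edgeR, adjusted p = 0.013), and the 3 pigs of low RIN, at 397.9, 548.2 and 594.2 CPM, were among the 4 lowest of all. JPH1 rose by 0.30 (SE 0.074, edgeR, adjusted p = 0.0012), from 198.0, 294.5 and 299.0 CPM in the 3 pigs against 252.8 to 557.5 CPM in the others. CASQ1 rose by 0.23 (SE 0.080, edgeR, adjusted p = 0.016), and its 3 low-RIN values, 1649, 1971 and 2074 CPM, lay inside the range of the other pigs.

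**Figure D3:**
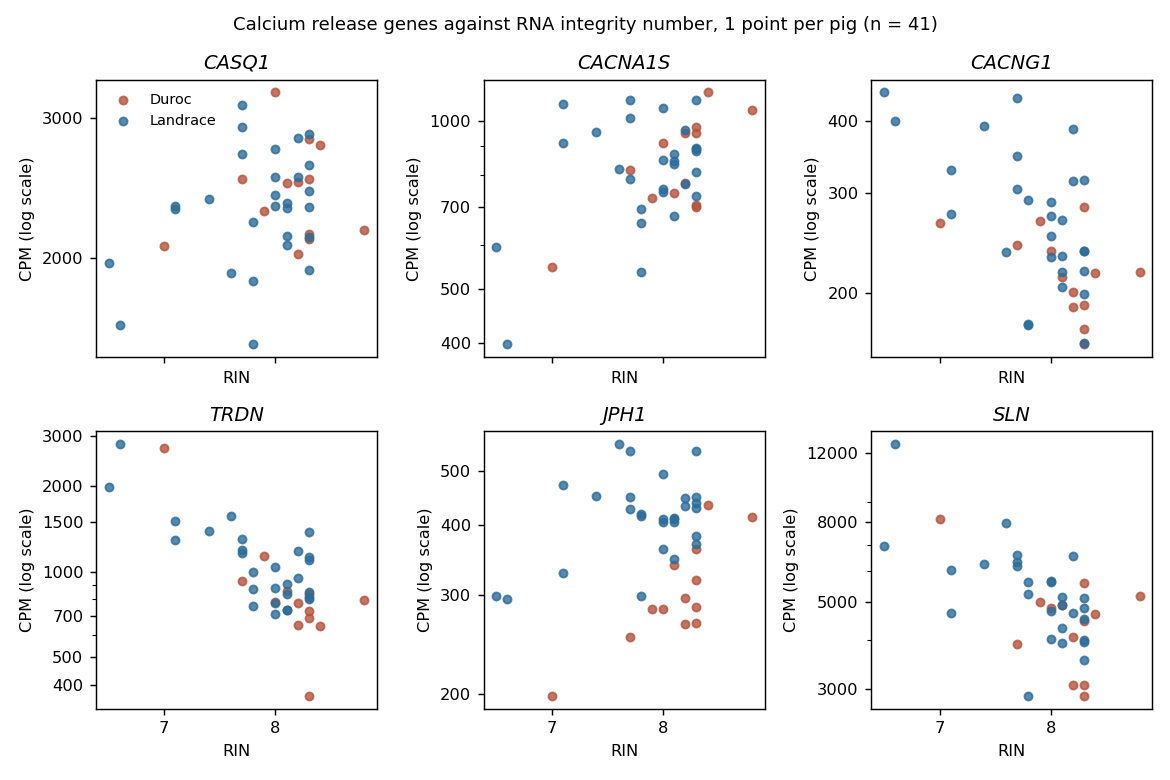
CPM of each gene (log axis) against RIN, 1 point per pig, Duroc in red and Landrace in blue. The 3 pigs with RIN of 7 or below stand above all others for TRDN and low for CACNA1S and JPH1, and the remaining 38 pigs lie between RIN 7.1 and 8.8.

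The slopes depended on those few pigs. Calls fell over all genes as well, from 51.8% to 35.6% without the 2 pigs of RIN below 7 and to 17.3% without the 3 of 7 or below. Without the 2 pigs, 2 of the 6 genes were called, TRDN at -0.79 (edgeR, adjusted p = 0.0016) and SLN at -0.38 (adjusted p = 0.050). Without the 3 pigs of RIN of 7 or below none was called by edgeR, all 6 estimates kept their sign, and TRDN was at -0.42 (adjusted p = 0.15) and CACNA1S at 0.01 (adjusted p = 0.98). CACNG1 also lost its call without Landrace replicate 1 alone, at -0.27 (edgeR, adjusted p = 0.15). Fitted alone, batch 2 gave calls for 4 of the genes, beside 33.1% of all genes, and batch 5 for 3, beside 25.3%.

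Marker lists moved with RIN too. All 5 slow-fibre contractile genes were called as falling, from -0.999 to -0.602 on the log2 scale per unit, and of the 5 fast-fibre genes 3 were called as falling and 1 as rising. Of the 6 fibroblast markers 3 were called as rising and of the 6 leukocyte markers 1 as falling, of the 3 smooth muscle markers 1 as falling, and none of the endothelial, adipocyte or cardiac markers tested was called. With the slow-fibre score in the model CACNA1S lost its RIN call, at 0.24 (edgeR, adjusted p = 0.12), and with both scores CACNG1 lost its own, at -0.18 (adjusted p = 0.13). The other 5 genes stayed called in each of these fits, beside 46.9% of all genes with the slow-fibre score and 40.9% with both.

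The division into rising and falling genes was relative to the other genes of each library. When libraries were scaled by their total alone, the median RIN slope over all genes shifted from -0.01 to 0.30, 3 genes were called as rising and 1, TRDN at -0.48, as falling, and CACNG1 at -0.06 and SLN at -0.14 were no longer called. Of all genes 63.8% were called in that fit, 6225 rising and 882 falling. Relative to the median of all genes, CACNG1 was at -0.35 under both scalings, and SLN at -0.46 and -0.44. For breed the same change of scaling shifted the median difference over all genes from -0.00 to -0.18, and JPH1 was 0.81 above that median both ways.

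No calcium release gene was called for age with edgeR, where 1.76% of all genes were, and none with DESeq2 or limma. At an unadjusted p under 0.05 there was 1, JPH1, which changed by -0.20 on the log2 scale per 10 days (SE 0.076, edgeR, adjusted p = 0.19). All 6 estimates were negative, from -0.20 to -0.00, and with batch entered as a number JPH1 was called, at -0.25 (edgeR, adjusted p = 0.077). Ages ran from 131 to 166 days, and the Duroc pigs had the lower median.

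Feed conversion ratio was the trait of main interest, and 0 of the 6 genes were called for it with edgeR, DESeq2 or limma. With edgeR and with limma 0.00% of all 11146 genes were called, and with DESeq2 5 of 10765 (0.0464%), so the calcium release genes did not stand apart in this. At an unadjusted p under 0.05 there was 1 gene, CASQ1, at -0.08 on the log2 scale per 0.1 FCR (SE 0.039, edgeR, adjusted p = 0.57), which is a change of -5.42% with lower levels in pigs of higher FCR.

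The remaining estimates for FCR were small and their intervals spanned 0. CACNG1 was at -0.10 with a 95% interval from -0.22 to 0.02, TRDN at -0.09 from -0.23 to 0.05, and SLN at -0.08 from -0.20 to 0.03. CACNA1S was at -0.05 from -0.16 to 0.06 and JPH1 at 0.00 from -0.07 to 0.08.

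The FCR slope was also fitted separately in each breed and compared between them. In the test of the difference 0 of 6 genes were called with edgeR, where 0.00% of all genes were, with none at an unadjusted p under 0.05 and none called by DESeq2. CACNA1S had the lowest p, its slope being 0.15 lower in Landrace (SE 0.10, edgeR, adjusted p = 0.94). Within the 13 Duroc pigs 0 of 6 were called, with 0.00% of all genes, and the slopes ran from -0.08 for SLN to 0.02 for TRDN. Within the 28 Landrace pigs 0 of 6 were called, with 0.00% of all genes, and the slopes ran from -0.13 for CACNG1 to -0.02 for JPH1. In neither breed was any of the 6 at an unadjusted p under 0.05 with edgeR or called with DESeq2.

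The genes were next compared with each other across pigs. Over the 15 pairs that 6 genes form, 5 were correlated after adjustment over the 15, all of them positively (permutation test of Pearson's r, two-sided, 100000 permutations, n = 41). These fell into a set of 3 genes, TRDN, SLN and CACNG1, and a chain from CASQ1 through CACNA1S to JPH1. The same sets fell and rose with RIN. The signs depended on the scaling: with library totals alone 9 pairs were called, 4 positive and 5 negative, the lowest r being -0.68.

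TRDN and SLN were the closest pair, with r = 0.75 and Spearman's rho = 0.65 (permutation p = 1e-05 and 4e-05, adjusted p = 5e-05 and 0.0003, the first the smallest the permutations can give before adjustment). Without the 2 pigs farthest from the median of TRDN, r was 0.63, and within batches 2, 3 and 5 it was 0.77, 0.51 and 0.81. CACNG1 correlated with TRDN at r = 0.62 and rho = 0.65 (permutation p = 1e-05 for both, adjusted p = 5e-05 and 0.00015), with 0.58 without the 2 farthest pigs and 0.73, 0.57 and 0.59 within the batches. CACNG1 and SLN gave r = 0.61 and rho = 0.58 (permutation p = 1e-05 and 6e-05, adjusted p = 5e-05 and 0.0003), with 0.59 without the 2 farthest pigs and 0.53, 0.78 and 0.72 within the batches.

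In the other chain CASQ1 and CACNA1S gave r = 0.61 and rho = 0.49 (permutation p = 2e-05 and 0.0013, adjusted p = 7.5e-05 and 0.0050), with 0.44 without the 2 farthest pigs and 0.58, 0.83 and 0.75 within the batches. CACNA1S and JPH1 gave r = 0.51 and rho = 0.48 (permutation p = 0.00074 and 0.0019, adjusted p = 0.0022 and 0.0057), with 0.49 without the 2 farthest pigs and 0.26, 0.67 and 0.58 within the batches. These 5 correlations were thus positive in each of the 3 batches.

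**Figure D4:**
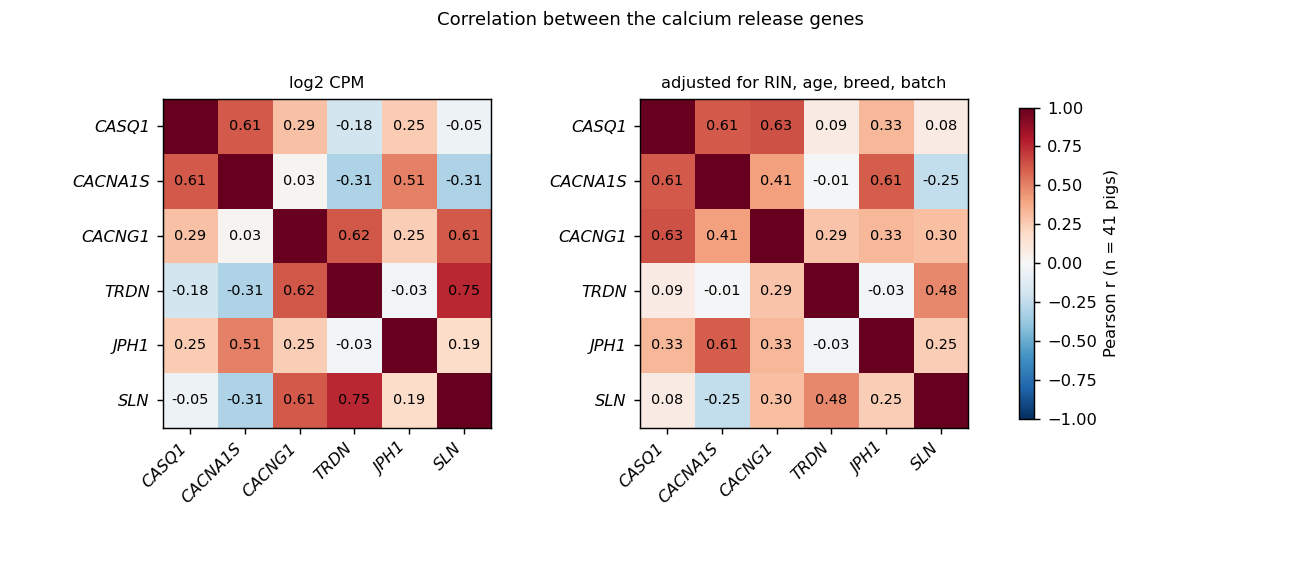
Pearson's r between the 6 genes over 41 pigs, on log2 CPM (left) and on what remained after adjustment for RIN, age, breed and batch (right), coloured from -1 (blue) to 1 (red). On the left TRDN, SLN and CACNG1 form one block and CASQ1, CACNA1S and JPH1 a chain, and on the right CASQ1 and CACNG1 show the highest value, 0.63.

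The pattern among the genes changed once RIN, age, breed and batch were taken out. Again 5 of the 15 pairs were called, but CASQ1 with CACNG1 (r = 0.63) and CACNA1S with CACNG1 (r = 0.41) took the place of the CACNG1 pairs with TRDN (r = 0.29) and SLN (r = 0.30). TRDN and SLN stayed correlated at 0.48, and CACNA1S at 0.61 with each of CASQ1 and JPH1. On log2 CPM without the adjustment, 10 of the 15 pairs had a positive r over all 41 pigs. Without the 3 pigs of low RIN all 15 did, from 0.13 to 0.63, and 10 were called.

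The genes most like each member across pigs after the same adjustment were taken as a description, from 41 pigs that share the same scaling. They were sought among the 9823 other genes that had a symbol and passed the filter on low counts. CASQ1 was most like LDHA, lactate dehydrogenase A, at r = 0.83, then PRDX4 at 0.79 and EHD1 at 0.78. CACNA1S was most like MAN2A2 at 0.82, then ATP2A1, the fast-fibre calcium pump, and MSTN, myostatin, both at 0.81. CACNG1 was most like AK1, adenylate kinase 1, at 0.81, then ACTA1, skeletal alpha actin, and ACP4, both at 0.80.

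JPH1 was most like PHKB, a subunit of phosphorylase kinase, at 0.79, then NAA30 and MSTN, both at 0.74. TRDN was most like METAP2 at 0.92, then SLTM and LARP7, both at 0.85. SLN was most like AP2B1 at 0.87, ZFAND6 at 0.83 and PSMD13 at 0.78. MSTN was the single gene that appeared beside 2 of the members, CACNA1S and JPH1.

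Further calcium handling genes were taken from 6 lists by role, of which 53 of 66 genes were found and 50 tested. For breed 24 of the 50 were called, 12 higher and 12 lower in Landrace, with a median of 0.09 against -0.00 over all genes, and for RIN 29 were called, 16 rising and 13 falling. These are shares of 48% and 58%, beside 33.1% and 51.8% of all genes. The calcium release genes, all with positive breed estimates and a median of 0.40, were read beside these lists without a test between them.

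The role groups are given by their counts, with no test between them. Among the voltage sensor and triad genes 3 of 9 were called, all higher in Landrace, a share of 33.3% beside 33.1% of all genes. Of the 9 calcium-dependent enzymes 5 were called higher and 1 lower, and of the 15 release channel partners 4 higher and 2 lower. In the calcium store and buffer list 4 of 8 were called and all 4 were lower, as were 2 of 3 pump genes and 3 of 6 store-operated entry genes. The 2 pump genes were ATP2A2, whose call was marginal, and ATP2A3, with between 17 and 169 counts in a library. The third, ATP2A1, with between 27718 and 236319 counts, had a positive estimate and was not called.

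**Figure D5:**
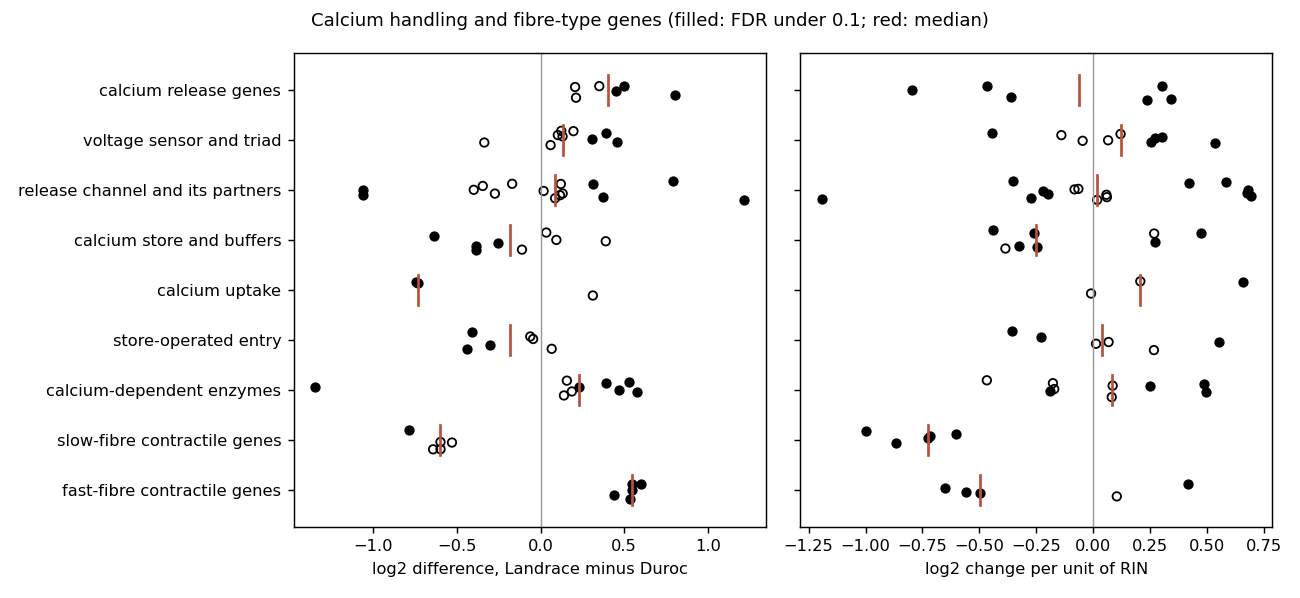
Log2 difference between the breeds (left) and log2 change per unit of RIN (right) for each gene tested in the calcium and fibre-type lists, with filled points where the adjusted p is under 0.1 and a red bar at each list's median. The calcium release genes all lie above 0 for breed, as do the fast-fibre genes, and the slow-fibre genes all lie below 0.

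Of these genes, large called breed differences were found in RCAN1, a calcineurin regulator, at -1.34 (edgeR, adjusted p = 0.0066), and in RYR3, a paralogue of the release channel, at 1.22 (adjusted p = 0.0073). RYR3 was rare, with between 13 and 153 counts in a library, and is no stand-in for RYR1. S100A1, which binds the release channel, and ITPR3, an inositol trisphosphate receptor, were both at -1.06 (edgeR, adjusted p = 0.015 and 0.011), ITPR3 with between 3 and 76 counts. All 4 of these calls were lost with the fast-fibre score in the model, where S100A1 was about as low as before, at -1.04 (edgeR, adjusted p = 0.15), and RCAN1 at -0.34, ITPR3 at -0.41 and RYR3 at 0.67 were nearer 0. The call of S100A1 was also lost with RIN left out, at -0.38 (edgeR, adjusted p = 0.54). In batch 2 alone RCAN1 at -0.73 (adjusted p = 0.22, edgeR) and ITPR3 at -0.33 (0.39) were not called, and in batch 5 alone RCAN1 at -1.05 (0.10), RYR3 at 0.98 (0.28) and S100A1 at -1.16 (0.22) were not.

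The calcium pumps that sarcolipin acts on gave estimates of opposite sign for breed, whose difference was not tested. ATP2A1, the fast-fibre pump, was at 0.31 (edgeR, adjusted p = 0.18) and ATP2A2, the slow-fibre pump, was called lower in Landrace at -0.73 (adjusted p = 0.090). That call was marginal: it was lost with DESeq2 (adjusted p = 0.11), without the filter on low counts (0.12), with batch as a number (0.10), with age (0.13) or FCR (0.11) left out, in batch 5 alone (-0.51, 0.58), and with the slow-fibre score, where ATP2A2 was at -0.12 (adjusted p = 0.66). ASPH, whose locus also encodes junctin, the partner of triadin, was called higher at 0.31 (edgeR, adjusted p = 0.022), and was not called with library totals alone, at 0.13 (adjusted p = 0.22). The ASPH call was also lost with the fast-fibre score (0.24, edgeR, adjusted p = 0.30) or both scores (0.24, 0.30) and in batches 2 (0.27, 0.14) and 5 (0.25, 0.60) alone. CACNB1, the beta 1 subunit of the voltage sensor, was at 0.13 (adjusted p = 0.49) and PVALB, the cytosolic buffer parvalbumin, at 0.39 (adjusted p = 0.53), and neither was called. STAC2 had at most 19 counts and was not tested, and CASQ2, JPH2, STAC and PLN were not analysed here.

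With RIN the largest called changes among these genes were in S100A1, at -1.19 per unit (edgeR, adjusted p = 4.86e-05), ITPR3 at 0.69 (adjusted p = 0.033), SELENON at 0.68 (adjusted p = 0.00079), RYR3 at 0.68 (adjusted p = 0.064) and ATP2A1 at 0.66 (adjusted p = 0.00026). The ITPR3 call was lost with both fibre scores (0.46, edgeR, adjusted p = 0.24) and the SELENON call in batch 5 alone (0.90, 0.15). ASPH fell by 0.22 (edgeR, adjusted p = 0.017), and ATP2A2 at 0.21, CACNB1 at -0.14 and PVALB at -0.39 were not called. With the slow-fibre score in the model these 3 were called, ATP2A2 at 0.87 (edgeR, adjusted p = 5.48e-05), CACNB1 at -0.26 (adjusted p = 0.053) and PVALB at -0.68 (adjusted p = 0.066), and with both scores ATP2A2 was at 0.75 (adjusted p = 0.00065). The RYR3 call was lost at slopes of similar size with limma (0.57, adjusted p = 0.10), with batch as a number (0.55, 0.12), with the slow-fibre score (0.54, 0.19) and in batch 5 alone (0.74, 0.24), and at a smaller slope without the 2 pigs of RIN below 7, where RYR3 was at 0.17 (edgeR, adjusted p = 0.76). The ASPH call was lost without the filter on low counts (edgeR, adjusted p = 0.14) and without the 2 pigs of RIN below 7 (-0.18, 0.15). It was also lost in batches 2 (-0.10, edgeR, adjusted p = 0.33) and 5 (-0.27, 0.265) alone. The ASPH slope took the opposite sign with library totals alone, at 0.10. Without the 3 pigs of low RIN, 8 of the 50 were called in place of 29, a fall shared by all genes, of which 17.3% were called. None of the 5 was called there: S100A1 was at -0.94 and ITPR3 at 0.64, both near their values over all pigs, SELENON at 0.36, ATP2A1 at 0.18 and RYR3 at -0.08.

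Neither age nor FCR gave a call among the 50 genes with edgeR. For age 8 were at an unadjusted p under 0.05, as were 1778 of all 11146 genes, and DESeq2 called 2 and limma 0. For FCR 3 were at an unadjusted p under 0.05, beside 968 of all 11146, among them BIN1, which shapes the transverse tubule, at -0.14 per 0.1 FCR and ASPH at -0.09, and DESeq2 and limma called 0. BIN1 and ASPH had adjusted p of 0.53 and 0.55 with edgeR.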

How the data were processed

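RNA of psoas major from 41 boars was sequenced as unstranded 100 base read pairs. Per the labels and the study's methods, the authors trimmed with Trimmomatic 0.39, aligned to Sscrofa11.1 with STAR 2.7.1a and deposited its counts per Ensembl 96 gene. The unstranded counts were used here, so reads of overlapping or antisense genes cannot be told apart. Between 69.9% and 80.9% of reads fell on genes, and rows that name no gene were left out.

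Following the study's model, edgeR 4.0.16 (R 4.3.3) quasi-likelihood tests in the legacy form were fitted on all genes kept by filterByExpr (minimum count 10), with TMM scaling, with terms for breed, RIN, age, FCR and the 5 batches (a factor). Adjusted p are Benjamini-Hochberg values over all genes tested, and a gene was called under 0.1. DESeq2 1.42.0 and limma 3.58.1 were alternatives. CPM used TMM factors, over the filtered genes for the 6 members and over all genes for the list sums, and log2 CPM a prior count of 2. Fibre scores are mean z of log2 CPM over 5 slow-fibre or 5 fast-fibre genes. The fits were tested on simulated data. A plan for pairs among 8 genes became 15 pairs among 6. Pairs were called under an adjusted permutation p of 0.05.

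Named genes were the members, the partners and paralogues listed, and of the calcium lists the 5 largest called changes per term, any called for FCR, and the 3 genes most alike to each member. Members and lists were chosen with earlier results of these data known. BIN1 was named after its values were seen, and 1 gene that the rule named is not reported here. No 2 libraries agreed within sampling noise.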

Additional observations from a re-analysis of the deposited data

How the results depend on the processing

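The breed differences of JPH1 and CACNG1 kept their call in each of the 41 fits that left out 1 pig, as did that of SLN. The CACNG1 and SLN calls were lost in other fits given with the results, CACNG1 in batches 2 and 5 alone and with the fast-fibre or both scores, and the 0 calls for FCR held in every alternative run. The count of members called for breed was 1 in batch 5 alone and 1 with the fast-fibre score or both scores added, where the wider calcium genes called for breed were 6 and 7 in place of 24; they were 10 in batch 2 and 8 in batch 5. Over all genes 11.7%, 12.7%, 12.3% and 7.67% were called in these 4 fits. With the fast-fibre score, breed estimates reversed to -0.101 for CASQ1, -0.154 for CACNA1S, -0.0965 for CACNG1, -0.189 for ATP2A1, 0.152 for ATP2A2, -0.342 for CACNB1 and -1.05 for PVALB, and with both scores to -0.0994, -0.159, -0.0945, -0.190, 0.127, -0.343 and -1.04. CACNB1 was then called (edgeR, adjusted p = 0.080 and 0.074). Breed also reversed for CACNA1S in batch 2 (-0.0259), PVALB in batch 5 (-0.155) and CACNB1 with library size only (-0.0379). The cause of these changes was not tested.

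For RIN, members called were 3 in batch 5, 2 without the 2 pigs below 7 and 0 without the 3 at 7 or below, and wider calcium genes 10, 17 and 8 in place of 29, beside 25.3%, 35.6% and 17.3% of all genes. RIN slopes reversed for ASPH (0.101) and CACNB1 (0.173) with library size only, for ATP2A2 without the 2 pigs (-0.0844), and without the 3 pigs for ASPH (0.0229), ATP2A2 (-0.410), PVALB (0.0666) and RYR3 (-0.0833). Pairs called were 9 with library size only (4 positive and 5 negative), 9 without the 2 pigs and 10 without the 3.

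For age, 1 member was called with batch as a number, and wider calcium genes called were 3 with batch as a number, 2 with DESeq2, 2 with FCR left out, 1 without the 3 pigs and from 0 to 2 leaving out single pigs. Over all genes 7.3% were called for age with batch as a number, 5.06% with DESeq2, 6.15% with FCR left out and 2.54% without the 3 pigs. Age and FCR estimates that changed sign were uncalled in the fit reported. For age, CACNA1S was at 0.0435 with RIN left out, 0.0377 in batch 2, 0.115 with the fast-fibre score, 0.112 with both scores, 0.0136 with the slow-fibre score, 0.0659 with library size only, 0.0537 without the 3 pigs and -0.0443 to 0.0554 leaving out single pigs. TRDN was at 0.263 in batch 5, 0.0156 and 0.00651 with the fast-fibre and both scores, 0.0188 with library size only and -0.176 to 0.0208 leaving out single pigs. With the fast-fibre and both scores CACNG1 was at 0.0580 and 0.0714 and CASQ1 at 0.0208 and 0.0252.

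For FCR, JPH1 was at -0.00819 with RIN left out, -0.0268 with age left out, -0.000244 in batch 2, -0.0130 in batch 5, -0.00298 with batch as a number, -0.0216 without the 3 pigs and -0.0115 to 0.0243 leaving out single pigs. CACNA1S was at 0.00628 with the fast-fibre score, 0.00319 with both and 0.00628 with library size only, and TRDN at 0.00514 without the 3 pigs. Within Duroc, JPH1 was at -0.00754 with DESeq2 and -0.00368 with age left out, and CACNA1S at 0.0140 with age left out. The difference between the breeds for TRDN was 0.00168 with age left out. No paired analysis was possible because the replicate numbers only name pigs.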

Other observations

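The files also hold counts split by the strand of the read. Over all genes with enough reads, the share assigned to the first strand column had a median of 49.8%, and the 5th to 95th percentile ran from 45.1% to 54.4%, as for an unstranded library. CACNG1, the gamma 1 subunit of the voltage sensor, lay outside that range at 40.8%, with single pigs between 38.0% and 44.6%. TRDN, triadin, was at 48.5%, but single pigs ran from 35.8% to 53.6%, the widest spread among the 6 calcium release genes. CASQ1, CACNA1S, JPH1 and SLN had shares from 48.6% to 50.6%. These values were chosen for mention after they had been seen, and their source was not tested.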
